A study of Rattus norvegicus with 4 samples.

Results

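The genes described here are 26 genes of cholesterol synthesis and its control in the rat liver: 20 enzymes of the route from acetyl-CoA units to cholesterol, 5 genes of the sterol regulatory element-binding protein (SREBP) system, and the sterol carrier Stard4. The 20 enzymes include Ggps1, which makes geranylgeranyl diphosphate, a branch off the route to cholesterol. The 26 genes were chosen by gene symbol, and all 26 were present among the 16992 genes measured. Livers came from male Wistar rats, 6 weeks old on purchase and wild type, that were deprived of food and water and then anesthetized through a nose cone with 4.5% sevoflurane or 6% desflurane. RNA from the left lateral lobe of 1 rat was sequenced for each of 4 conditions: 6 h of sevoflurane, 6 h of desflurane, and, for each agent, a control killed as soon as it lost consciousness. The controls had therefore also inhaled the agent. All 4 rats were killed at about the same time of day, so the 6 h rats had also gone without food for 6 h longer, and the length of anesthesia and the time without food cannot be told apart.

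Hepatocytes make cholesterol from acetyl-CoA through mevalonate, squalene and lanosterol. SREBP2 (gene Srebf2) is the factor best known for driving the genes of this route, whereas SREBP1 (gene Srebf1) is best known for fatty acid synthesis and, in liver, rises with feeding and insulin. SCAP escorts both precursors from the endoplasmic reticulum to the Golgi for cleavage when sterols are low, and the INSIG proteins hold them back when sterols are plentiful.

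Levels are TPM values, a unit scaled for transcript length and library size, so that genes can be compared with each other. A gene was called upregulated or downregulated when the library with more of it had a TPM value above 2 and the difference exceeded 2-fold. Log2 changes were calculated on TPM + 1, which understates the changes of genes with low levels. With 1 library per condition there is no replicate check and no test, and a difference compares 2 rats. The difference between both controls shows how far 2 rats after brief anesthesia lay apart: none of the 26 genes was called between them, against 2.34% of the 9756 genes tested, and the largest control difference was that of Acat2, lower in the desflurane control (-0.63 on the log2 scale), with a median absolute difference of 0.18. The libraries held between 4.47 and 5.40 Gb of aligned bases, and the lowest average coverage of any of the 26 genes was between 6.65 and 8.68 per library.

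All 26 genes had TPM values higher than 2 in every library. The highest mean levels were those of Hmgcs1 (289 TPM), Sc5d (265 TPM), Insig2 (241 TPM), Fdps (214 TPM) and Nsdhl (203 TPM), and the lowest was that of Ggps1 (4.49 TPM). The 20 enzymes summed to 1731 TPM in the sevoflurane control, 1357 TPM after 6 h of sevoflurane, 1778 TPM in the desflurane control and 1769 TPM after 6 h of desflurane. The library from 6 h of sevoflurane thus held the lowest sum, and the other 3 libraries lay close together. It also held the lowest level of 17 of the 26 genes, against 26.9% of all genes, and among these 17 were 14 of the 20 enzymes. The count was between 18 and 19 under the other scalings of TPM and 11 with FPKM values, under which the background was 14.3% of genes.

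**Figure D1:**
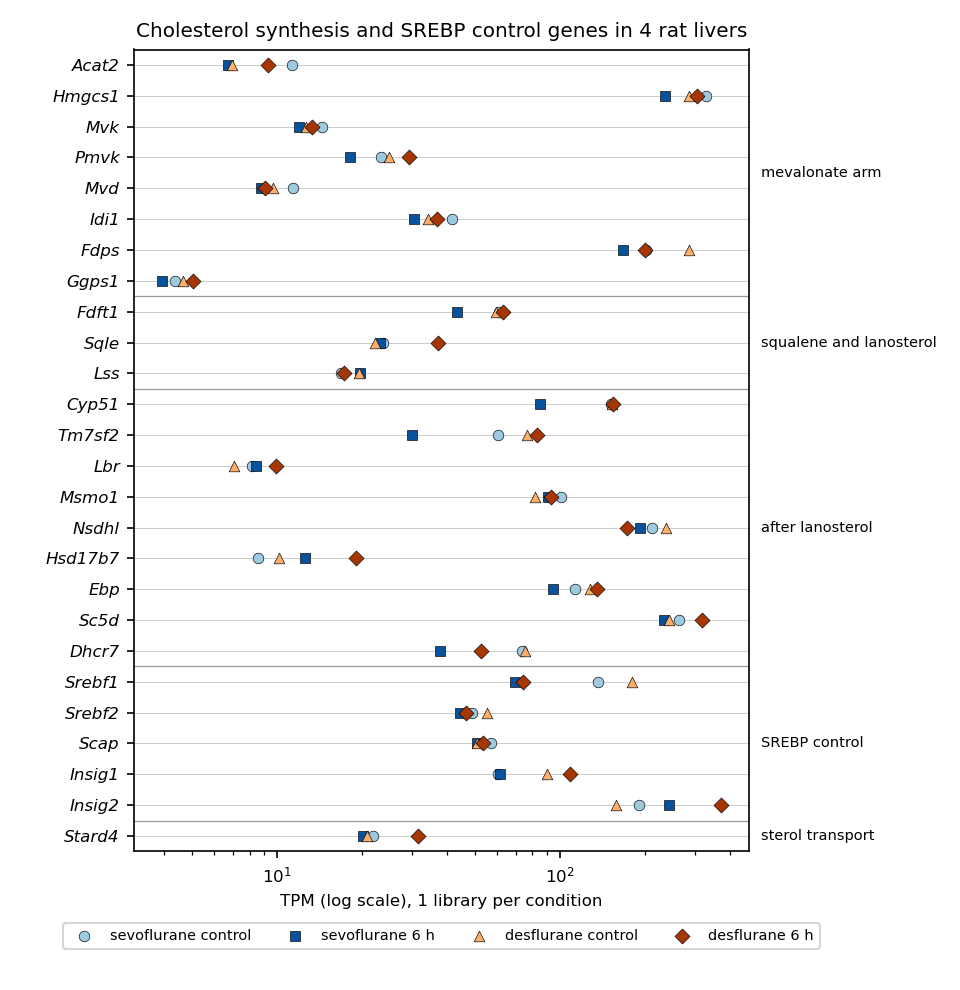
TPM values (horizontal, log scale) of the 26 genes (vertical, by role) in 4 libraries, 1 rat each, with no error bars because there are no replicates. The dark blue square of 6 h of sevoflurane is the lowest point for 17 genes (11 with FPKM values), and Srebf1 shows both 6 h libraries (69.5 and 74.3 TPM) below both controls (136 and 181 TPM).

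Against its own control, the 6 h sevoflurane liver had 1 of the 26 genes downregulated (Tm7sf2) and none upregulated, beside 3.3% and 2.23% of the 9754 genes tested. Against the desflurane control, Srebf1 and Tm7sf2 were lower past the limits and none higher, beside 2.59% and 2.52%. Of the 26 genes, 21 were lower by any amount than in the own control and 19 than in the other, beside 43.5% and 41.7% of all genes. These counts were between 21 and 23 and between 15 and 22 under the other scalings, beside 40.5% to 49.9% and 24.7% to 50.9% of all genes. The count of 15 came from FPKM values, with which 24.7% of all genes were lower. The median log2 change was -0.21 against the own control and -0.18 against the other, with medians of 0.05 and 0.06 over all genes tested.

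Against its own control, the 6 h desflurane liver had 1 gene upregulated (Insig2) and 1 downregulated (Srebf1), beside 2.79% and 1.48% of the 9855 genes tested. Against the sevoflurane control, Hsd17b7 was higher past the limits and no gene lower, beside 2.84% and 1.58%. Lower by any amount were 7 genes against the own control and 12 against the other, beside 33.4% and 36.0% of all genes. Against the own control this count was 16 with median-of-ratios scaling, 8 without ribosomal RNA genes and 10 with FPKM values. Beside these stood 50.6%, 39.8% and 43.1% of all genes, so most of the 26 genes and of all genes were lower with the first scaling. Against the other control the count was 15, 12 and 16 in the same order, beside 50.2%, 36.6% and 71.2% of all genes. The median log2 change was 0.10 against the own control and 0.03 against the other, with medians of 0.11 and 0.10 over all genes. Median-of-ratios scaling, which aligns the libraries on their typical gene, shifted log2 ratios of TPM without a pseudocount by -0.13 and -0.10. With it, both medians of the 26 genes were below 0 (-0.02 and -0.07). Relative to the median of all genes, the 26 genes were at -0.26 and -0.24 after sevoflurane and at -0.01 and -0.07 after desflurane, in the order own control, other control. Median-of-ratios scaling changed the share of higher calls among all genes called from 65.3% to 50.1% for desflurane against its own control and from 64.2% to 51.0% against the other. With FPKM values this share went from 49.3% to 71.1% for sevoflurane against the desflurane control, from 64.2% to 28.0% for desflurane against the sevoflurane control, and from 70.2% to 34.7% for desflurane against sevoflurane at 6 h. The comparisons share libraries and are not independent.

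**Figure D2:**
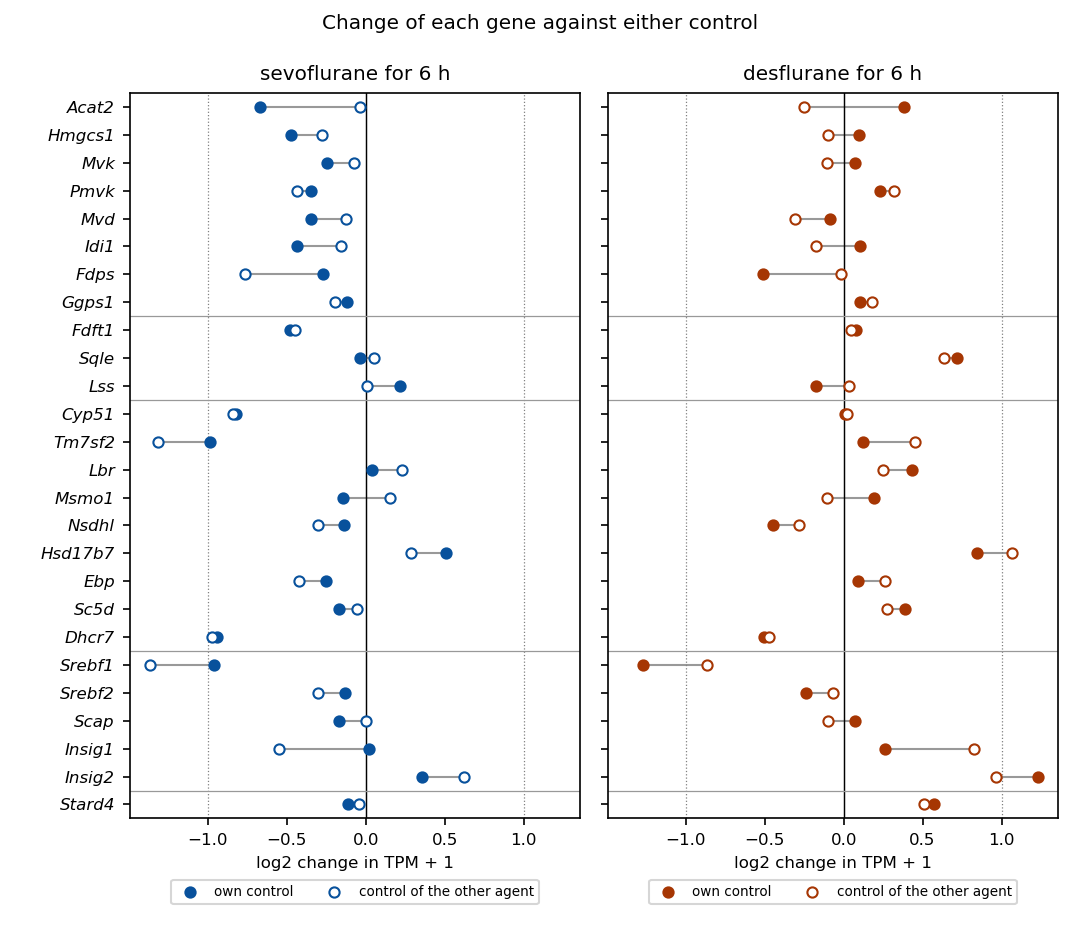
Log2 change in TPM + 1 (horizontal) of each of the 26 genes (vertical, by role) after 6 h of sevoflurane (left) and desflurane (right), 1 rat each. Filled points use the own control and open points the control of the other agent, dotted lines mark a 2-fold change on this scale, and the mevalonate arm lies left of 0 for sevoflurane with either control (with FPKM values, 6 of the 8 against the desflurane control).

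The clearest values among the SREBP genes were those of Srebf1. Its level was 136 TPM in the sevoflurane control, 69.5 TPM after 6 h of sevoflurane, 181 TPM in the desflurane control and 74.3 TPM after 6 h of desflurane. Both 6 h livers held less than either control, and the controls differed by 0.41 on the log2 scale. Srebf1 was downregulated 2.43-fold after desflurane against its own control and was 2.60-fold lower after sevoflurane than in the desflurane control. Against the sevoflurane control it was 1.96-fold lower after sevoflurane and 1.83-fold lower after desflurane, both within the 2-fold limit. The gene lies on chr10:46570996-46593009 (rn6, minus strand) and shares 595 bp with Rai1 on the opposite strand, which was listed at 6.41 to 8.63 TPM. The tables give 1 value for the gene, so transcripts from its different starts were not told apart.

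Srebf2, whose product is the main driver of these enzymes, stayed within a narrow range. Its level was 48.8 TPM in the sevoflurane control, 44.4 TPM after 6 h of sevoflurane, 55.1 TPM in the desflurane control and 46.5 TPM after 6 h of desflurane. Both 6 h values lay below both controls, but the log2 differences from the own control, -0.13 and -0.24, were close to the 0.17 between the controls. The ratio of Srebf1 to Srebf2 was 2.79 and 3.28 in the sevoflurane and desflurane controls, and 1.56 and 1.60 after 6 h of each agent. Scap lay between 50.8 and 57.3 TPM in all 4 libraries.

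Of the INSIG pair, Insig2 was higher in both 6 h livers. Insig2 was at 190 TPM in the sevoflurane control, 243 TPM after 6 h of sevoflurane, 158 TPM in the desflurane control and 372 TPM after 6 h of desflurane. Both 6 h livers held more than either control, and Insig2 was upregulated 2.35-fold after desflurane against its own control, compared with 1.28-fold higher after sevoflurane. Insig1, the member of the pair whose own gene is a known SREBP target, was at 60.6 TPM in the sevoflurane control, 61.4 TPM after 6 h of sevoflurane, 90.3 TPM in the desflurane control and 108 TPM after 6 h of desflurane. Its controls differed by 1.49-fold, more than either agent differed from its own control (1.01-fold and 1.20-fold). The ratio of Insig2 to Insig1 was 3.14 and 1.75 in the sevoflurane and desflurane controls and 3.96 and 3.43 after 6 h of each.

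The value of Insig2 depended on the gene model. The annotated model (chr13:37266413-37279866, minus strand) spans 13.5 kb, whereas the model that StringTie assembled from the reads spanned between 27.9 and 30.3 kb. In the assembled model, an alternative chosen after seeing the data, the level was 109 TPM in the sevoflurane control, 119 TPM after 6 h of sevoflurane, 91.3 TPM in the desflurane control and 138 TPM after 6 h of desflurane. The order of the libraries was kept, but desflurane was 1.51-fold above its own control and no longer passed the limit.

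Lists of genes known to follow feeding state were set beside these values. Of 10 feeding-induced genes, of which many are SREBP1 targets, 1 was downregulated and none upregulated after sevoflurane against the own control, and 4 were downregulated and none upregulated after desflurane, with median log2 changes of 0.29 and -0.10. Of 10 fasting-induced genes, 3 were upregulated after sevoflurane and 6 after desflurane, with medians of 0.38 and 1.29. Of all genes tested against the own control, 2.23% were upregulated and 3.3% downregulated after sevoflurane, with a median of 0.05. After desflurane these shares were 2.79% and 1.48%, with a median of 0.11. Against the control of the other agent, 2 feeding-induced genes were downregulated after sevoflurane and 1 after desflurane, with medians of -0.09 and -0.0058, so the sign turned for sevoflurane. For the fasting-induced genes the counts upregulated were then 5 and 6 and the medians 1.05 and 1.19, with 1 downregulated after sevoflurane. Of all genes, 2.52% were then upregulated and 2.59% downregulated after sevoflurane, and 2.84% and 1.58% after desflurane. The medians of all genes were 0.06 and 0.10. Between the controls, 2 feeding-induced genes were called higher in the desflurane control, with a median of 0.43. Of the fasting-induced genes, 1 was called higher and 2 lower in the desflurane control, with a median of -0.26. Of all genes tested, 2.34% were called between the controls in either direction, with a median of -0.03. Whether time without food accounts for any of these values was not tested.

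The mevalonate arm, from acetyl-CoA units to farnesyl and geranylgeranyl diphosphate, was represented by 8 enzymes. Their levels summed to 637 TPM in the sevoflurane control, 484 TPM after 6 h of sevoflurane, 665 TPM in the desflurane control and 610 TPM after 6 h of desflurane. All 8 were lower after sevoflurane than in either control, beside 43.5% (own control) and 41.7% (other control) of all genes. Against the desflurane control only 6 were lower with FPKM values, beside 24.7% of all genes. In the assembled models, Mvk was instead higher after sevoflurane, 1.05-fold against the own control and 1.24-fold against the other. In the annotated models, none of the 8 passed the 2-fold limit in any comparison.

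Hmgcs1, which makes HMG-CoA in the cytosol, was the most abundant of the 26. It was at 328 TPM in the sevoflurane control, 236 TPM after 6 h of sevoflurane, 286 TPM in the desflurane control and 306 TPM after 6 h of desflurane. The sevoflurane liver was 1.39-fold below its own control and 1.21-fold below the other. Fdps, which makes farnesyl diphosphate, was at 203 TPM in the sevoflurane control, 168 TPM after 6 h of sevoflurane, 286 TPM in the desflurane control and 201 TPM after 6 h of desflurane. Here the desflurane control stood apart: against it sevoflurane was 1.71-fold and desflurane 1.43-fold lower, while against the sevoflurane control the values were 1.21-fold and 1.01-fold lower.

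Acat2, the thiolase that joins acetyl-CoA units, showed how far the choice of control reached. It was at 11.3 TPM in the sevoflurane control, 6.73 TPM after 6 h of sevoflurane, 6.93 TPM in the desflurane control and 9.32 TPM after 6 h of desflurane. The sevoflurane liver was 1.67-fold below its own control but 1.03-fold below the other. Idi1, the isomerase of isopentenyl diphosphate, ranged from 30.6 TPM after sevoflurane to 41.7 TPM in the sevoflurane control. The kinases Mvk and Pmvk, the decarboxylase Mvd and the geranylgeranyl diphosphate synthase Ggps1 were between 1.06-fold and 1.37-fold lower after sevoflurane against either control. Acat2, Idi1, Fdps and Nsdhl have 1 to 5 named near copies in the RefSeq gene table, so their values are uncertain. Idi1 also shares 100 bp with Wdr37 on the opposite strand, listed at 5.40 to 7.14 TPM.

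Of the 3 enzymes that make squalene and close it to lanosterol, Fdft1 followed the mevalonate arm. Fdft1, squalene synthase, was at 61.2 TPM in the sevoflurane control, 43.5 TPM after 6 h of sevoflurane, 59.6 TPM in the desflurane control and 63.1 TPM after 6 h of desflurane. The 3 other libraries lay close together and the sevoflurane liver was 1.41-fold and 1.37-fold below the controls. Sqle, squalene epoxidase and a rate-controlling step, had a different order: 23.7 TPM in the sevoflurane control, 23.1 TPM after 6 h of sevoflurane, 22.3 TPM in the desflurane control and 37.3 TPM after 6 h of desflurane. The desflurane liver stood alone, 1.67-fold above its own control and 1.57-fold above the other. Lss, lanosterol synthase, lay between 16.8 and 19.6 TPM.

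The 9 enzymes after lanosterol summed to 992 TPM in the sevoflurane control, 787 TPM after 6 h of sevoflurane, 1012 TPM in the desflurane control and 1041 TPM after 6 h of desflurane. Among the enzymes they held the 3 lowest ratios after sevoflurane against either control, those of Tm7sf2, Dhcr7 and Cyp51, as well as Hsd17b7, the only enzyme called higher against a control. Their changes after sevoflurane against the own control ranged from -0.99 to 0.51 on the log2 scale.

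Cyp51 removes the 14-alpha methyl group of lanosterol. It was at 152 TPM in the sevoflurane control, 85.2 TPM after 6 h of sevoflurane, 153 TPM in the desflurane control and 154 TPM after 6 h of desflurane. The other libraries were nearly equal and the sevoflurane liver was 1.78-fold below its own control and held 0.557 of the level of the other, within the 2-fold limit.

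Tm7sf2 reduces the C14 double bond that Cyp51 leaves. It was at 60.7 TPM in the sevoflurane control, 30.1 TPM after 6 h of sevoflurane, 76.6 TPM in the desflurane control and 83.4 TPM after 6 h of desflurane. It was downregulated 2.01-fold after sevoflurane against the own control, was 2.54-fold lower than in the desflurane control, and was 2.77-fold higher after desflurane than after sevoflurane. The first of these calls was lost with a pseudocount of 1 TPM or without ribosomal RNA genes. In the sevoflurane library the assembled model ran on to 14.5 kb, beyond the 4.32 kb of the annotation (chr1:221426017-221430340, minus strand), and its 36.3 TPM was 1.68-fold below the own control and 2.12-fold below the other. Lbr, the nuclear membrane protein that carries the same reductase activity, was at 7.06 to 9.89 TPM, so the ratio of Tm7sf2 to Lbr was 3.58 after sevoflurane and between 7.45 and 10.8 in the other 3 libraries.

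Dhcr7, which catalyzes a final reduction of the route, was lower in both 6 h livers than in either control. It was at 73.4 TPM in the sevoflurane control, 37.8 TPM after 6 h of sevoflurane, 75.1 TPM in the desflurane control and 52.5 TPM after 6 h of desflurane. The controls were nearly equal, and the 6 h livers were 1.94-fold and 1.43-fold below their own. The sevoflurane value lay just inside the 2-fold limit. With median-of-ratios scaling, Tm7sf2, Dhcr7 and Srebf1 were all 3 downregulated after sevoflurane against either control.

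Hsd17b7, the 3-ketosteroid reductase of the route, lay on the other side of the controls in both 6 h livers. It was at 8.55 TPM in the sevoflurane control, 12.6 TPM after 6 h of sevoflurane, 10.1 TPM in the desflurane control and 19.0 TPM after 6 h of desflurane. Both 6 h livers held more than either control, by 1.48-fold for sevoflurane and 1.87-fold for desflurane against the own control, and desflurane was 2.22-fold above the sevoflurane control. In the assembled model the values against the own control were 2.03-fold and 2.21-fold. The whole gene (chr13:88291248-88307988, minus strand) is overlapped on the other strand by LOC100366054, which was listed at 0.419 to 1.02 TPM.

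The remaining steps differed less. Nsdhl, which acts beside Hsd17b7 in removing the C4 methyl groups, was at 212 TPM in the sevoflurane control, 192 TPM after 6 h of sevoflurane, 237 TPM in the desflurane control and 174 TPM after 6 h of desflurane, both 6 h livers below both controls. Msmo1, the C4 methyl oxidase, lay between 81.8 and 101 TPM. Ebp, the sterol isomerase, ranged from 94.9 TPM after sevoflurane to 136 TPM after desflurane, and Sc5d, the sterol C5 desaturase, from 234 TPM to 320 TPM in the same libraries. Stard4, a soluble carrier of sterols between membranes, was at 21.9 TPM in the sevoflurane control, 20.2 TPM after 6 h of sevoflurane, 20.8 TPM in the desflurane control and 31.5 TPM after 6 h of desflurane, where only the desflurane liver stood apart (1.51-fold above its own control).

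**Figure D3:**
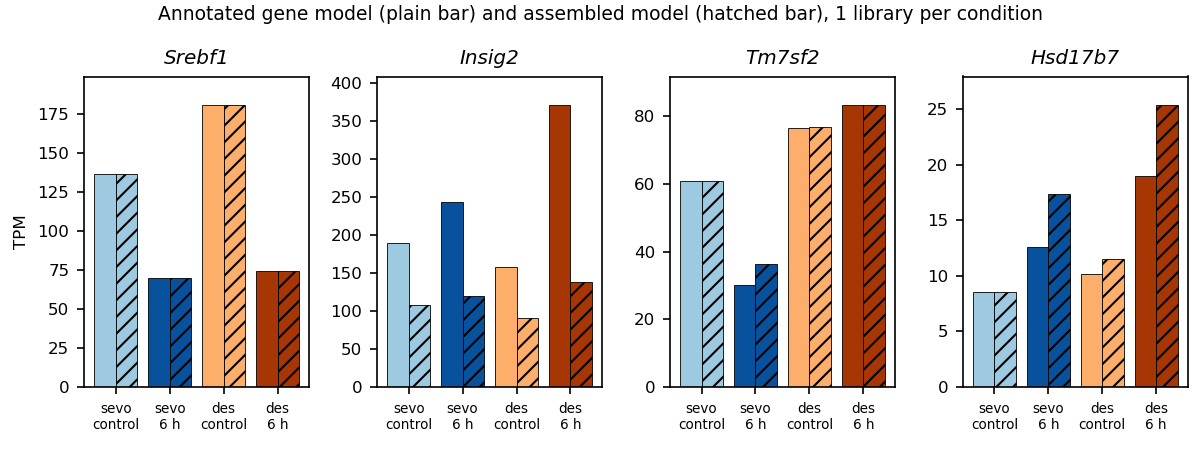
TPM values (vertical, from 0) of Srebf1, Insig2, Tm7sf2 and Hsd17b7 in 4 libraries, 1 rat each, with no error bars because there are no replicates. Plain bars are the annotated gene model and hatched bars the model assembled from the reads; both are equal for Srebf1, and for Insig2 after 6 h of desflurane they are 372 and 138 TPM.

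The start sites of the 4 genes called against a control are shown because these genes were called in different directions. The RefSeq table of the GRCr8 assembly holds windows of 300 bases, from 250 before to 50 after the start, for 22 of the 26 genes, all but Pmvk, Fdft1, Sqle and Stard4 (23 windows, since Srebf1 has 2 starts). Below, 250 bases of each are given 5′ to 3′ on the strand of the gene, with the coordinates of that build, and capitals mark the NF-Y box CCAAT and the Sp1 box GGGCGG on either strand.
Srebf1 upstream window, chr10:45529165-45529414, minus strand: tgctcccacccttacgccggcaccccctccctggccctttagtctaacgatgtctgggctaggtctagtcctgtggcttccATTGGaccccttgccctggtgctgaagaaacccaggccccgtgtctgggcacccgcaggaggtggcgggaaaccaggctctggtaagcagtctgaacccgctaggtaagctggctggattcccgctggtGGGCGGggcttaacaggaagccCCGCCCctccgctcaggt
Srebf1 downstream window, chr10:45519011-45519260, minus strand: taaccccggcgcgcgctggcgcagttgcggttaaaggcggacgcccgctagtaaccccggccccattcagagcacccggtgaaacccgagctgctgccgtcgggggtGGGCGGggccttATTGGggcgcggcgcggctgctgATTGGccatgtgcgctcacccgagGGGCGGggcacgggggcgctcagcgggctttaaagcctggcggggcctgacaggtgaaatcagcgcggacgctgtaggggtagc
Insig2, chr13:35040099-35040348, minus strand: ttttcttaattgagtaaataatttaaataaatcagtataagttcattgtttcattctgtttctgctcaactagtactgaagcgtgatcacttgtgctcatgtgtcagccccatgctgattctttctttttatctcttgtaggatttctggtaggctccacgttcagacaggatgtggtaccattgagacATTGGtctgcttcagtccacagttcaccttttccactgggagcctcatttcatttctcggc
Tm7sf2, chr1:212789542-212789791, minus strand: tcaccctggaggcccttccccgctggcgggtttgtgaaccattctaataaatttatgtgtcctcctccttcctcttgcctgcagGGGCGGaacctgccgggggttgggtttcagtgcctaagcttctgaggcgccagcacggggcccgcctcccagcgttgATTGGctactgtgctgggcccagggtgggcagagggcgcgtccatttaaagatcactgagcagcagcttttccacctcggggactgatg
Hsd17b7, chr13:84722755-84723004, minus strand: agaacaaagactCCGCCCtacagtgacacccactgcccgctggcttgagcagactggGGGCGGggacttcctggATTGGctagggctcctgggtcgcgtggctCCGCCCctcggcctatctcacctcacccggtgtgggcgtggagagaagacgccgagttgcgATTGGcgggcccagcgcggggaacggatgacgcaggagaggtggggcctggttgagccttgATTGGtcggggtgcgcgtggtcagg

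In the 250 bases printed, the Srebf1 sequences hold 1 and 2 NF-Y boxes and 2 Sp1 boxes each, the Tm7sf2 sequence 1 of each, the Hsd17b7 sequence 3 of each, and the Insig2 sequence 1 NF-Y box and no Sp1 box. The last 50 bases of the windows add 1 Sp1 box at either Srebf1 start and 1 NF-Y box at that of Tm7sf2. The Insig2 window is that of the RefSeq start, whereas in rn6 the assembled models began between 12.8 and 13.0 kb before the annotated start, and which start the liver used was not tested. Over the full windows, CCAAT was found in 19 of the 23, or 82.6%, against 37.5% of all 33469 windows. GGGCGG was also found in 19 of the 23, against 33.1% of all windows. The E-box CACGTG was found in those of Insig1, Sc5d and Scap, or 13.0% against 6.42%. A short form of the sterol regulatory element, TCACNCCAC, was in none of the 23 windows and in 1.12% of all windows. Both strands were searched, no motif contains another, and a match is a description of the sequence only.

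Compared with each other directly, the desflurane liver held more than the sevoflurane liver for 24 of the 26 genes, beside 58.6% of all genes tested, the exceptions being Lss and Nsdhl. This count was 22 with median-of-ratios scaling, 24 without ribosomal RNA genes and 18 with FPKM values, with which 28.6% of all genes were higher. The median log2 difference was 0.40, against 0.06 over all genes, and the lowest and highest were -0.18 and 1.44. Past the limits, Tm7sf2 was higher and no gene was lower, beside 2.76% and 1.17%. The desflurane liver was the highest of the 4 for 13 genes, among them Pmvk, Sqle, Hsd17b7, Insig1, Insig2 and Stard4, beside 38.3% of all genes. This count was not determined under the other scalings. With median-of-ratios scaling, Fdft1 and Cyp51, which are among the 13, had both 6 h livers below both controls.

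**Figure D4:**
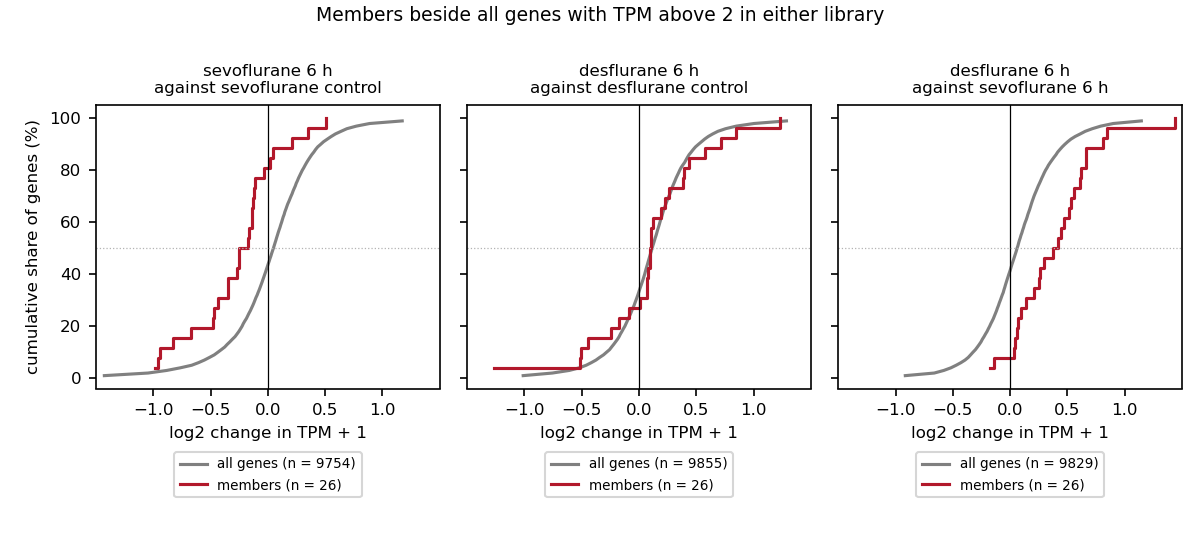
Cumulative share of genes (vertical, %) by log2 change in TPM + 1 (horizontal) for the 26 genes (red) and all genes with TPM higher than 2 in either library (grey), in 3 comparisons of 1 rat with 1 rat. The red line crosses the middle at -0.21, 0.10 and 0.40 from left to right, and the grey line at 0.05, 0.11 and 0.06.

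Some genes had both 6 h livers on one side of both controls. Below both controls were 6 of the 26 (Mvd, Fdps, Nsdhl, Dhcr7, Srebf1 and Srebf2), beside 13.3% of all genes, and above both were 3 (Lbr, Hsd17b7 and Insig2), beside 33.3%. With median-of-ratios scaling, which lowers both 6 h libraries, the counts were 12 and 2. Without ribosomal RNA genes they were 6 and 3, and with FPKM values 7 and 2. The shares of all genes under these scalings were not determined, so these counts have no background. On opposite sides, with the sevoflurane liver below both controls and the desflurane liver above both, were 8 genes (Pmvk, Ggps1, Fdft1, Cyp51, Tm7sf2, Ebp, Sc5d and Stard4), beside 11.2% of all genes. Log2 changes larger than the largest control difference of 0.63 were seen for 5 genes after sevoflurane and 4 after desflurane against the own control, beside 10.7% and 9.21% of all genes tested.

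Other genes of the pathway were taken from a fixed list, of which 25 were measured. After sevoflurane 17 of the 25 were higher against the own control and 16 against the other, beside 56.5% and 58.3% of all genes. Their median log2 changes were 0.11 and 0.06. After desflurane 17 and 18 were higher, beside 66.6% and 64.0%, with medians of 0.13 and 0.11. After sevoflurane, 1 was downregulated against the own control: Aacs, which activates acetoacetate for synthesis in the cytosol, was at 5.43 TPM in the sevoflurane control, 2.63 TPM after 6 h of sevoflurane, 3.86 TPM in the desflurane control and 4.82 TPM after 6 h of desflurane. After desflurane, 1 was upregulated against either control: Dhdds, a subunit of the enzyme that makes the dolichol precursor from farnesyl diphosphate, was at 27.0 TPM in the sevoflurane control, 49.5 TPM after 6 h of sevoflurane, 26.1 TPM in the desflurane control and 55.4 TPM after 6 h of desflurane. Dhdds was thus higher in both 6 h livers, by 1.84-fold for sevoflurane and 2.13-fold for desflurane against the own control. None of the 25 was called for sevoflurane against the desflurane control, beside 2.52% of all genes called higher and 2.59% lower. Against the own control, 3.3% of all genes were called lower after sevoflurane. After desflurane, 2.79% and 2.84% were called higher against the own and the other control. The counts of 1 among the 25 lay near these shares. Acat1, the mitochondrial thiolase, lay between 130 and 193 TPM. Acly, which supplies cytosolic acetyl-CoA, was at 72.6 TPM in the sevoflurane control and between 127 and 132 TPM in the other 3 libraries.

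The markers of the labelled tissue and of other cells were measured in the same libraries. All 8 hepatocyte markers were present, with sums between 110777 and 126845 TPM. All 7 Kupffer cell and macrophage markers were lower in the 6 h sevoflurane liver than in either control and in the 6 h desflurane liver, with sums of 558 TPM in the sevoflurane control, 348 TPM after 6 h of sevoflurane, 443 TPM in the desflurane control and 531 TPM after 6 h of desflurane. The 6 measured lymphocyte markers summed to 22.4, 5.72, 13.8 and 15.7 TPM in the same order. Their part in the low values of the cholesterol genes in this library was not tested, and in bulk tissue fewer cells of a type and less RNA per cell cannot be told apart. The endothelial sums were between 144 and 167 TPM, the stellate cell sums between 270 and 300 TPM, the cholangiocyte sums between 11.0 and 16.9 TPM, and the erythroid sums between 10.2 and 22.7 TPM. The 7 pancreatic acinar markers summed to 32.7 TPM in the sevoflurane control, with none at 0, and to between 0.196 and 0.738 TPM in the others, with 3 to 5 of the 7 at 0.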

How the data were processed

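RNA from rat liver was measured in 4 libraries, 1 rat for each condition, as given in the labels. The authors prepared stranded libraries depleted of ribosomal RNA, trimmed paired-end reads with sickle, mapped them to rn6 with HISAT2, sorted them with SAMtools, and quantified the refGene annotation with StringTie. Whether strand was used in quantification is not given in the sources used here. The deposited tables hold an average coverage per gene (signal, not normalized for library size), FPKM values, which the authors normalized for library size and length with StringTie, and TPM values. The deposited TPM column is a signal on the TPM scale, on which the models assembled by StringTie sum to 1000000 per library and the annotated genes to between 779824 and 813454. Annotated rows longer than 200 base pairs were used, and TPM values were summed per symbol, which left 16992 genes. Each of the 26 genes had 1 row in every library.

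Read counts are not in the files used here. Aligned bases, between 4.47 and 5.40 Gb per library, were derived from coverage and FPKM values, and counting error is unknown apart from the coverage. Calls followed the rule of the study, namely a TPM value higher than 2 in the higher library and a difference of more than 2-fold without a pseudocount. Log2 changes used a pseudocount of 1 TPM. Since 1 library stands for each condition, no test was made. All 26 genes were named. Other pathway genes were named when called against either control or when among the 3 with the highest mean TPM, and of the feeding and fasting lists only counts and medians are given. A gene that this rule would name is not reported here. The 26 genes and all lists were chosen with earlier results of these data known. The calling script was run on simulated data with 200 changed genes among 16992. In each of the 4 comparisons of a 6 h library with a control, 200 were recovered with 0 false calls. This run checks only that the script applies the rule. How often the rule calls genes between livers of the same condition was not tested. Between both controls, 228 of the 9756 genes tested were called. Python 3.11.15, numpy 2.4.6, pandas 2.3.3 and matplotlib 3.10.9 were used. Alternatives were other TPM and fold limits, pseudocounts, scalings, FPKM values, row filters, the mean of both controls and, chosen after seeing the data, assembled models.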

Additional observations from a re-analysis of the deposited data

Results flagged for a closer look

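The median log2 change of the 26 genes had opposite signs for the 2 agents against their own controls, at -0.21 for sevoflurane and 0.10 for desflurane. The difference was not tested, and with median-of-ratios scaling both medians were below 0. For 8 genes the 6 h sevoflurane liver lay below both controls and the 6 h desflurane liver above both. Among the 26 genes, 5 had this pattern with median-of-ratios scaling (Pmvk, Sqle, Sc5d, Insig1 and Stard4). Without ribosomal RNA genes 7 had it, all among the 8, and with FPKM values 4 (Pmvk, Tm7sf2, Ebp and Insig1). Sqle and Insig1 were not among the 8. The shares of all genes with this pattern were 8.42%, 9.91% and 2.61% in the same order of scalings, and 11.2% with deposited TPM. Of the 8 genes, it held under all of the other scalings for Pmvk alone. Cyp51, at 154.1 TPM after desflurane and 153.1 TPM in the desflurane control, lost it under each of them. The log2 differences between desflurane and sevoflurane after 6 h were 1.44 for Tm7sf2, 0.85 for Cyp51, 0.67 for Pmvk, 0.62 for Stard4, 0.53 for Fdft1, 0.51 for Ebp, 0.45 for Sc5d and 0.29 for Ggps1. None of these differences was tested, since each agent has 1 rat at 6 h.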

How the results depend on the processing

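No paired analysis was possible because each condition has 1 library and the labels give no replicate numbers, and leaving out a library was not possible for the same reason. For the 6 h sevoflurane liver against its own control (1 gene lower, none higher), 5 genes were lower with a 1.5-fold limit, 0 with a 3-fold limit, with a pseudocount of 1 TPM in the fold or without ribosomal RNA genes, 3 with median-of-ratios scaling or FPKM values, and 2 against the mean of both controls; assembled models gave 2 higher (Lbr and Hsd17b7) and Ggps1 lower in place of Tm7sf2. Against the desflurane control (2 lower, none higher), 5 were lower and 1 higher with 1.5-fold, 0 lower with 3-fold, and 4 lower and 1 higher with assembled models, and the median of -0.18 was -0.05135 with FPKM values. For desflurane against its own control (1 higher, 1 lower), 4 were higher with 1.5-fold, 0 higher and 0 lower with 3-fold, and 2 higher against the mean of both controls or with assembled models, and the median of 0.10 was -0.0246 with median-of-ratios scaling. Against the sevoflurane control (1 higher, none lower), 4 were higher and 1 lower with 1.5-fold, 0 higher with 3-fold, and 0 higher and 1 lower with FPKM values, and the median of 0.03 was -0.0725 with median-of-ratios scaling, -0.21 with FPKM values and -0.005878 with assembled models. The 17 genes lowest after sevoflurane were 11 with FPKM values. The causes of these differences were not tested. The share of all genes called was not determined under other TPM or fold limits, the pseudocount, the mean of both controls or assembled models. Those counts therefore have no background. After sevoflurane against the own control, all genes called lower were 322 with deposited TPM and 307 without ribosomal RNA genes. They were 362 with median-of-ratios scaling and 221 with FPKM values. The assembled models covered 0.468 to 0.802 of the length of Lbr, and for 15 of the 26 genes they lay within 10% of the annotated length in every library. Of the changes of single genes, 45 of 104 moved by over 0.1 on the log2 scale with median-of-ratios scaling, 55 with FPKM values, 34 with assembled models and 23 of 52 against the mean of both controls, and no called change reversed. A TPM limit of 10 or none, the length filter, the best covered row of each symbol and a pseudocount of 0.1 TPM left the counts and medians they applied to within the limits above.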
